A study of Mus musculus with 6 samples.

Results

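Chemokines and chemokine receptors were drawn from the 27514 gene identifiers that the cortical and hippocampal gene lists share. They comprised every gene whose symbol reads Ccl, Cxcl, Xcl, Ccr, Cxcr or Ackr followed by a number, with Cx3cl1, Cx3cr1, Ccrl2 and Xcr1. This gave 67 genes under 62 symbols, of which 44 encode ligands, 18 encode signalling receptors and 5 encode atypical receptors. The rule used symbols and no measured value, but it was set with earlier results of these data known.

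Chemokines are small proteins, most of them secreted, that steer moving cells through G protein-coupled receptors. The atypical receptors Ackr1 to Ackr4 bind or take up chemokines without the usual G protein signal, and so shape where a ligand is found. Ccrl2, which presents chemerin, is counted with them here. In the brain, Cx3cl1 acts on Cx3cr1 of microglia, Cxcl12 acts on Cxcr4 and is cleared by Ackr3, and Ccl2 draws Ccr2-bearing monocytes.

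Cells came from the cerebral cortex of 3-week-old mice and from the hippocampus of 5-week-old mice, all female wild-type C57Bl/6J animals that were perfused, with the cells of 3 mice pooled in each preparation. Tissue was digested briefly at warm temperature with dispase II, papain and DNase I, cleared of myelin on Percoll and loaded unsorted for droplet RNA sequencing (10x Genomics). Each pool was split over 3 libraries, called replicates 1 to 3 below. These are technical replicates of 1 biological sample per condition, so no test between conditions is possible, and the SD over libraries and all intervals cover technical and counting error only. Region, age, preparation and gene annotation cannot be told apart in any cortex-hippocampus comparison.

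After filters, 13320 of 17937 cortical barcodes and 14210 of 15336 hippocampal barcodes remained, with a median of 5857 and 6775 UMIs (unique molecular identifiers, 1 per captured transcript). Library totals ran from 39662203 to 50024850 UMIs. Between libraries of 1 preparation, 71 kept cortical and 749 kept hippocampal cells shared a barcode with another library, and leaving them out left every count of genes found, highest in microglia-like cells, class-restricted or 2-fold apart in microglia-like cells as given below. Cells were clustered with the 67 genes left out and were named "X-like" from markers. Microglia-like cells were the largest class in both preparations (6181 and 5898 cells), ahead of endothelial-like (2696 and 2135) and astrocyte-like cells (2711 and 1975). Levels are UMIs per 1000000 UMIs (CPM) from the UMIs summed over a class. Reads came from transcript ends and were not scaled by length, so levels are compared between classes within a gene and not between genes.

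At least 10 UMIs over the named classes were found for 44 of the 67 genes in the cortex (25 ligands, 14 receptors and all 5 atypical receptors), against 60.1% of all shared genes. In the hippocampus 46 genes were found (27, 14 and 5), against 63.8% of all genes. All 44 cortical genes were also found in the hippocampus, and Ccl22 and Cxcl5 were found in the hippocampus alone, with 35 and 34 UMIs against 5 and 2 in the cortex. Of the 21 genes found in neither, 13 had 0 UMIs in both: Ccr4, Cxcr1, Ccl26, Ccl27b, both Ccl27 identifiers, the second Ccl19 identifier and all 6 of Ccl21a, Ccl21b and Ccl21c. The others were Ccl1, Ccl20, Cxcl3, Cxcl13, Cxcl15, Cxcl17, Ccr8 and Cxcr5, with 0 to 8 UMIs in a preparation. The near-identical copies of Ccl19, Ccl21 and Ccl27 can lose reads to each other, so their counts are uncertain. At 0 counts the limit for a gene is 3 UMIs over the class total.

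The genes did not sit in 1 cell type. In the cortex 11 of the 44 were highest in macrophage-like cells, or 25% against 5.44% of all genes found. In the hippocampus 19 of 46 were highest there, or 41.3% against 7.26%. These shares describe clusters and not macrophages alone, since the hippocampal cluster also held lymphocytes. Its 19 genes included Ccl5, Xcl1 and Cxcr6, whose UMIs lay mostly in T and NK cells (below). Ccr2, counted in both preparations, was low in macrophages classed by their own markers. Xcr1 (1.29 CPM) and Cxcr2 (3.88 CPM) were low in the hippocampal cluster. Microglia-like cells were the highest class for 5 cortical genes (11.4% against 12.8% of all genes) and 8 hippocampal genes (17.4% against 10.3%). The hippocampal count was 5 when each cell took the class of its own markers and 5 at a clustering resolution of 1.0. Endothelial-like cells were the highest class for 5 and 3 genes (10.2% and 7.89% of all genes). The cortical neuron-like cluster, which also held lymphocytes, was highest for 9 genes (17.8% of all genes), monocyte-like cells for 5 (11.6%), fibroblast-like cells for 3 (11.5%), astrocyte-like (16.8%), smooth muscle-like (6.9%) and pericyte-like cells (6.5%) for 2 each, and erythroid-like cells for 0 (0.478%). In the hippocampus fibroblast-like (6.96%) and pericyte-like cells (6.95%) were highest for 4 genes each, neuron-like cells for 3 (16.2%), astrocyte-like cells for 2 (6.17%), ependymal-like (13.4%), epithelial-like (4.36%) and OPC-like cells (9.98%) for 1 each, and oligodendrocyte-like (6.45%) and smooth muscle-like cells (4.15%) for 0. The same class was highest in both preparations for 22 of the 44 genes found in both. Monocyte-like and erythroid-like classes were named in the cortex alone. OPC-like, oligodendrocyte-like, ependymal-like and epithelial-like classes were named in the hippocampus alone. Genes highest in such a class could not match, and the share over all genes is not given here.

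**Figure D1:**
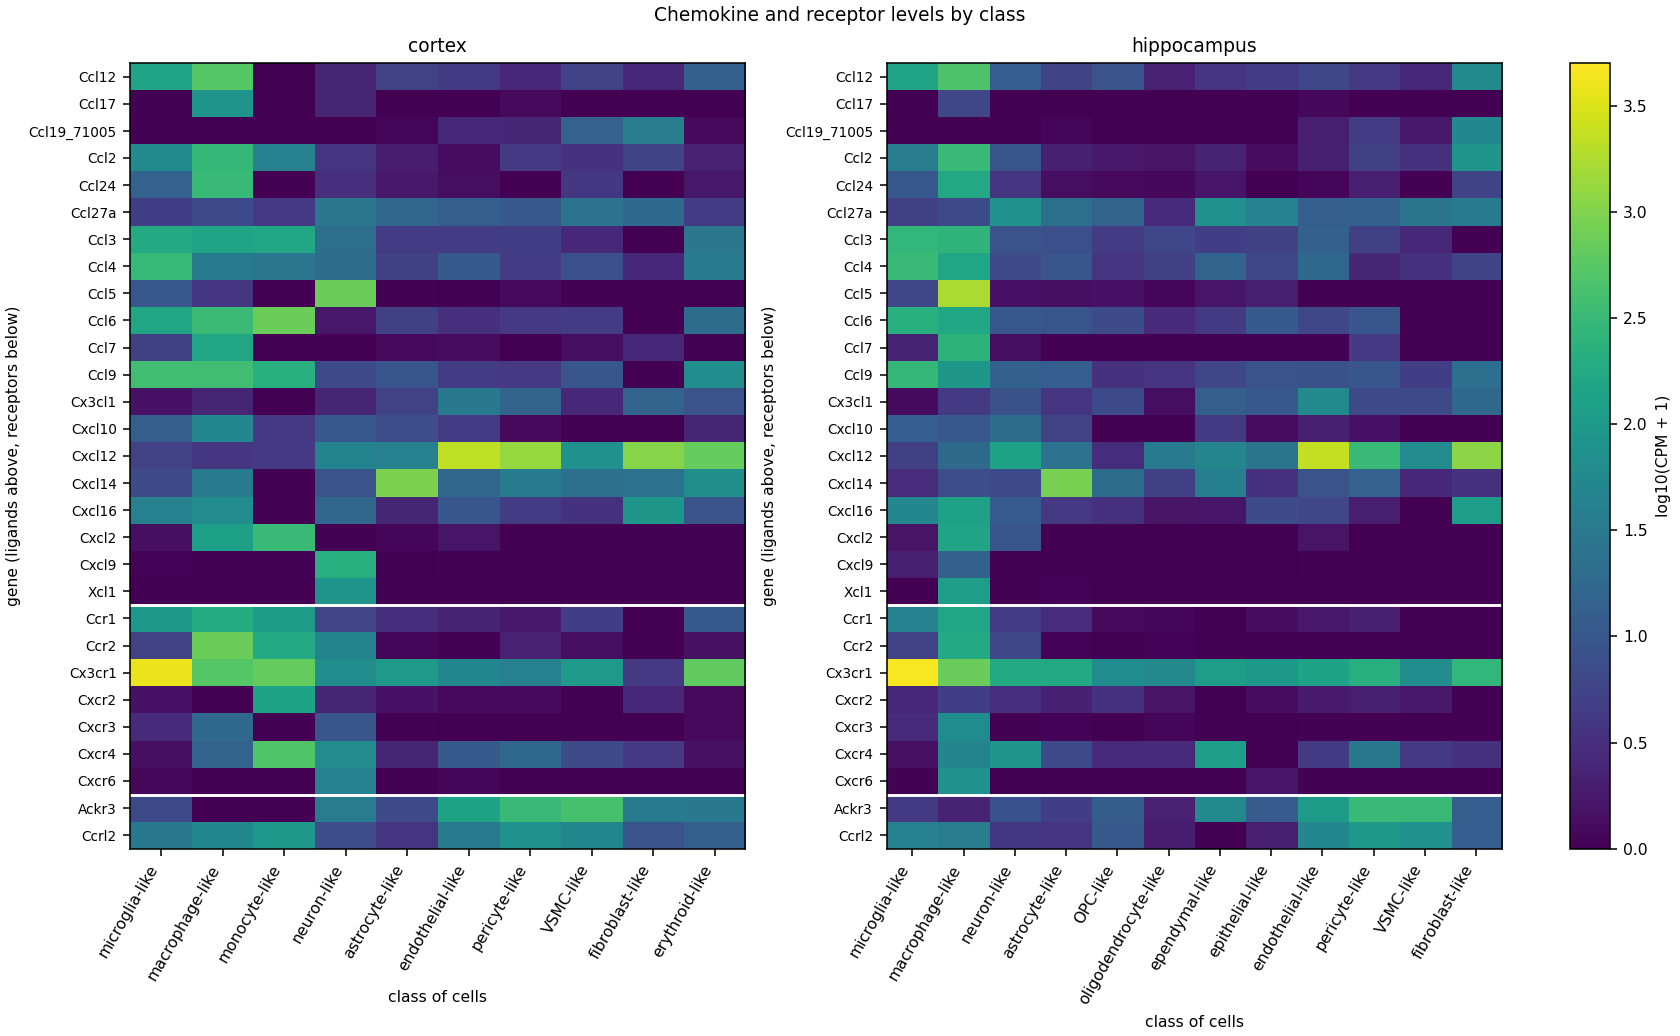
Level of genes that reached 50 CPM in a class of at least 20 cells (rows) in each marker-defined class (columns), as colour on a log scale of CPM, for cortex and hippocampus. Cx3cr1 is highest in microglia-like cells, Cxcl12 in endothelial-like cells and Cxcl14 in astrocyte-like cells of both preparations.

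A stricter view took genes whose highest class stood at least 5-fold above the next, on the scale of CPM plus 5. These numbered 15 in the cortex (5.37% of all genes found) and 13 in the hippocampus (6.63%), and 6 of them had the same class in both. They included Cx3cr1 in microglia-like cells, Cxcl14 in astrocyte-like cells, and Ccl24, Ccl7 and Ccl8 in macrophage-like cells. For 8 of the cortical and 4 of the hippocampal genes, fewer than 20 cells carried a UMI. Single cells weighed heavily there. All 298 Cxcl9 UMIs of the cortical neuron-like class came from 1 cell, and 53 of the 57 Ccl17 UMIs of cortical macrophage-like cells came from 1 cell.

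Cx3cr1, the fractalkine receptor that marks microglia, was measured at 4155, 3920 and 3649 CPM in the 3 cortical libraries of microglia-like cells (SD 253). The hippocampal libraries gave 4585, 4458 and 4630 CPM (SD 89.3). The hippocampal values lay above all cortical values, by 0.22 on the log2 scale (95% interval 0.21 to 0.23). At least 1 Cx3cr1 UMI was present in 98.5% (exact Clopper-Pearson 95% interval 98.1 to 98.8) of cortical and 99.5% of hippocampal microglia-like cells, at median depths of 5474 and 6647 UMIs, and in 95.6% and 98.0% after thinning each cell to 1000 UMIs. In endothelial-like cells, which should lack the gene, the share was 5.30% and 10.1% at median depths of 7066 and 6582 UMIs, and 1.71% and 3.47% after thinning. The next classes were monocyte-like cells in the cortex (668 CPM) and macrophage-like cells in the hippocampus (721 CPM).

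Ccr1, a receptor for Ccl3-type ligands, was the single gene that passed 2-fold between the regions in microglia-like cells. The cortical libraries gave 94.1, 91.4 and 88.8 CPM and the hippocampal libraries 37.7, 42.8 and 39.2 CPM. The groups did not overlap, and the raw log2 ratio of hippocampus over cortex was -1.19 (interval -1.28 to -1.11). Low genes that passed 2-fold only as raw ratios are given in the region comparison below. In macrophage-like cells, where Ccr1 was higher, the values overlapped: 221, 228 and 126 CPM in the cortex and 135, 128 and 190 CPM in the hippocampus. By subcluster, Ccr1 was 94.0 against 44.7 CPM in the largest microglial subclusters, 70.8 against 25.7 CPM in those led by Csf1 and Gas2l3, and 119 against 60.6 CPM in those led by Ifit3. It was 71.1 against 58.2 CPM in those led by Atf3. Ccr3 and Ccr6, receptors better known from eosinophils and lymphocytes, stayed low in microglia-like cells, at 1.82 and 2.45 CPM in the cortex and 2.56 and 2.87 CPM in the hippocampus.

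Among ligands, Ccl3 and Ccl4 (the macrophage inflammatory proteins) were highest in microglia-like cells. Cortical Ccl4 was 298, 275 and 333 CPM and hippocampal Ccl4 was 286, 332 and 344 CPM, so the regions overlapped. Cortical Ccl3 was 175, 156 and 215 CPM, and hippocampal Ccl3 was 261, 301 and 291 CPM. For Ccl3 the groups did not overlap and the log2 ratio was 0.65 (interval 0.60 to 0.69). Ccl3 was also 159 CPM in cortical monocyte-like cells and 256 CPM in hippocampal macrophage-like cells, against 182 and 285 CPM in the microglia-like cells. Endothelial-like cells held 10.1 and 16.2 CPM of Ccl4.

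Unlike Cx3cr1, these ligands were concentrated in few cells. A Ccl4 UMI was found in 19.6% of cortical and 23.3% of hippocampal microglia-like cells (9.40% and 10.4% after thinning). The highest 5% of cells, 309 in the cortex and 295 in the hippocampus, carried 79.4% and 76.4% of the Ccl4 UMIs. For Ccl3 that share was 74.0% and 61.4%, for Ccl2 94.1% and 90.1%, and for Ccl12 46.7% and 45.8%. For the receptor Cx3cr1 it was 12.1% and 10.3%. Not all ligands were so concentrated: the share was 25.9% and 26.6% for Ccl9, and 31.3% and 27.6% for Ccl6. This share depends on level and detection, and a Ccl2 UMI was found in only 6.91% and 7.41% of cells.

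Ccl3 and Ccl4 UMIs also met in the same cells. With cells thinned to 1000 UMIs, Ccl4 was seen in 34.0% of cortical cells with Ccl3 and in 7.09% of those without it. In the hippocampus the shares were 35.3% and 6.61%. The unthinned shares were 44.2% against 13.6% and 45.0% against 14.4%. Ccl12 and Ccl2 behaved alike: after thinning, Ccl12 was seen in 30.7% of cells with Ccl2 and 10.8% of those without in the cortex, and in 29.5% and 10.1% in the hippocampus. These are shares of cells of 1 pool and not of replicates.

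Both pairs lie in gene blocks on chromosome 11. One block (82035571 to 82305690, GRCm38) held Ccl2, Ccl7, Ccl11, Ccl12, Ccl8 and Ccl1. The other (83525778 to 83664683) held Ccl5, Ccl9, Ccl6, Ccl3 and Ccl4. In the first block Ccl2, Ccl7, Ccl12 and Ccl8 were highest in macrophage-like cells of both preparations, and Ccl11 in pericyte-like cells. In the second, Ccl3 and Ccl4 were highest in microglia-like cells of both preparations and Ccl6 and Ccl9 in those of the hippocampus, and Ccl5 was highest in other classes.

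The promoters of 4 ligands are shown because their levels split the microglia-like cells described below. RefSeq (GRCm38.p6) gave a window of 250 bases before to 50 after the start for 46 of the 62 symbols. The windows lie at chr11:83649329-83649628 (minus strand, Ccl3), chr11:83578587-83578886 (minus, Ccl9), chr11:82101595-82101894 (plus, Ccl12) and chr5:92348840-92349139 (minus, Cxcl10), and are written 5′ to 3′ on the gene's strand. Capitals mark matches on either strand to the AP-1 letters TGANTCA, the NF-kB letters (GGG, any 2 bases, TTTCC), the interferon element (ISRE) letters (TTTC, any 2 bases, TTTC) and the CRE letters TGACGTCA. No marked matches overlap.
Ccl3: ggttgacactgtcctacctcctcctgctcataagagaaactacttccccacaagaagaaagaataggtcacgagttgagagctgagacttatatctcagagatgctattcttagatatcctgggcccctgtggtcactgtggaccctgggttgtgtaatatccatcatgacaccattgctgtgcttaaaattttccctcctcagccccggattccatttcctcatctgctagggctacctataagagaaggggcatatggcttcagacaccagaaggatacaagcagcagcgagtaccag
Ccl9: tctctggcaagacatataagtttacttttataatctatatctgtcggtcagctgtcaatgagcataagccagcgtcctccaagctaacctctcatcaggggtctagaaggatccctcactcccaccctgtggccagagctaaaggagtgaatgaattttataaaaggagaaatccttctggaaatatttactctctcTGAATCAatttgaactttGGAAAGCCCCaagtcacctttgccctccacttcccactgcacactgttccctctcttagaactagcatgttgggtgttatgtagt
Ccl12: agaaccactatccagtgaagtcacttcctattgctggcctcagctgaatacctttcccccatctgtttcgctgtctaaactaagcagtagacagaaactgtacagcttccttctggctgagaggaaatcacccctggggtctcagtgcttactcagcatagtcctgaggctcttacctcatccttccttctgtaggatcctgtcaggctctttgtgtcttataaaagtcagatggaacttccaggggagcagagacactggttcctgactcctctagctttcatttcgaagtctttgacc
Cxcl10: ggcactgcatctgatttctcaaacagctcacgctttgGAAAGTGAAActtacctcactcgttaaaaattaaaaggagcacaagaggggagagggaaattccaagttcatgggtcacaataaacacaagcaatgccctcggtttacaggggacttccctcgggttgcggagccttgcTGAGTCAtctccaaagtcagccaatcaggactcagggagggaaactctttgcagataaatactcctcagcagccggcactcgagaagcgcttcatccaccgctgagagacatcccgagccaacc
Cxcl10 held an ISRE match at position -213 and an AP-1 match at -74, counted from the start. Ccl9 held an AP-1 match at -53 and an NF-kB match at -35. Ccl3 and Ccl12 held none of these letters in the window. Among all 27025 mouse promoters of this length, 7.93% held the AP-1 letters, 1.62% the NF-kB letters, 3.49% the ISRE letters and 1.88% the CRE letters. With 1 window counted for each of the 46 symbols, the first that RefSeq lists, 6, 6, 3 and 0 held them, and other windows of Ccl27a and Ccl27b held the AP-1 letters too. A match is a description of letters and not of binding.

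Microglia-like cells were clustered again without the 67 genes, and subclusters are called by their leading genes. A subcluster led by Csf1, Gas2l3, Cst7 and Lpl held 250 cortical cells, and one led by Gas2l3, Csf1, Plaur and Lpl held 362 hippocampal cells. In these cells 8 of 26 tested chemokine genes were at least 2-fold above the other cortical microglia-like cells, against 1.47% of all genes. In the hippocampus it was 7 of 29, against 1.26%. Ccl4 reached 1522, 2212 and 2302 CPM in the cortical libraries and 1138, 1822 and 2309 CPM in the hippocampal ones. In the largest cortical subcluster Ccl4 was 91.6, 75.1 and 92.5 CPM, below all of these.

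In the same subcluster Ccl3 was 898, 957 and 1140 CPM in the cortex and 814, 1166 and 1396 CPM in the hippocampus. Ccl9, a ligand of Ccr1, stood at 904 and 604 CPM, and Ccl6, from the same gene block, at 333 and 450 CPM. Cxcl16, a membrane-bound ligand of Cxcr6, was 99.4 and 130 CPM there. Their class-wide levels were 368 and 294 CPM for Ccl9, 155 and 219 CPM for Ccl6, and 40.1 and 50.5 CPM for Cxcl16. The receptor Cx3cr1 was lower than in the class as a whole, at 3125 and 3420 CPM.

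A subcluster led by Atf3, Klf2, Ier2 and Fos in the cortex (265 cells) and by Fam71a, Atf3, Nr4a1 and Klf2 in the hippocampus (249 cells) held 5 of 26 and 5 of 29 genes at least 2-fold up, against 0.841% and 0.715% of all genes. Ccl4 was 912, 442 and 1327 CPM in the cortex and 1128, 710 and 1057 CPM in the hippocampus. Summed over libraries, the hippocampal cells held 2086 Ccl3 UMIs beside 1865 Ccl4 UMIs, so Ccl3 was high there too. Ccl2, the monocyte attractant, was 120, 200 and 428 CPM and 320, 63.6 and 197 CPM, so it varied several-fold between libraries. Of 18 AP-1 and immediate early genes, 18 and 16 were at least 2-fold up in these cells, with a summed level of 42573 against 9575 CPM in the other cortical cells and 36158 against 11280 CPM in the hippocampus. Such genes rise in brain cells during warm digestion. Their part in the chemokine levels was not tested.

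A further cortical subcluster of 245 cells, led by Gadd45b, Nfkbiz, Ier3 and Nfkbia, held 6 genes at least 2-fold up, against 0.615% of all genes. Ccl4 was 1012, 801 and 338 CPM and Ccrl2, an atypical receptor that presents chemerin, was 118, 61.5 and 92.3 CPM. Here 7 of 17 NF-kB feedback and cytokine genes and 13 of 18 AP-1 genes were at least 2-fold up as well.

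Ccl12 and Cxcl10 followed a different group. In the subcluster led by Ifit3 and Ifitm3 (152 cortical and 121 hippocampal cells), all 17 interferon response genes were at least 2-fold up, with sums of 3678 against 273 CPM and 3893 against 258 CPM. Ccl12, a ligand of Ccr2, was 1113, 951 and 266 CPM in the cortical libraries and 1060, 1311 and 425 CPM in the hippocampal ones, against 142 and 145 CPM in microglia-like cells overall. Replicate 3 was lowest in both. Cxcl10, an interferon-inducible ligand of Cxcr3, was 485, 55.3 and 52.7 CPM in the cortex and 45.8, 767 and 0 CPM in the hippocampus, so 1 library carried most of it in each. In all, 3 of 26 and 5 of 29 chemokine genes were 2-fold up there, against 0.922% and 1.01% of all genes.

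**Figure D2:**
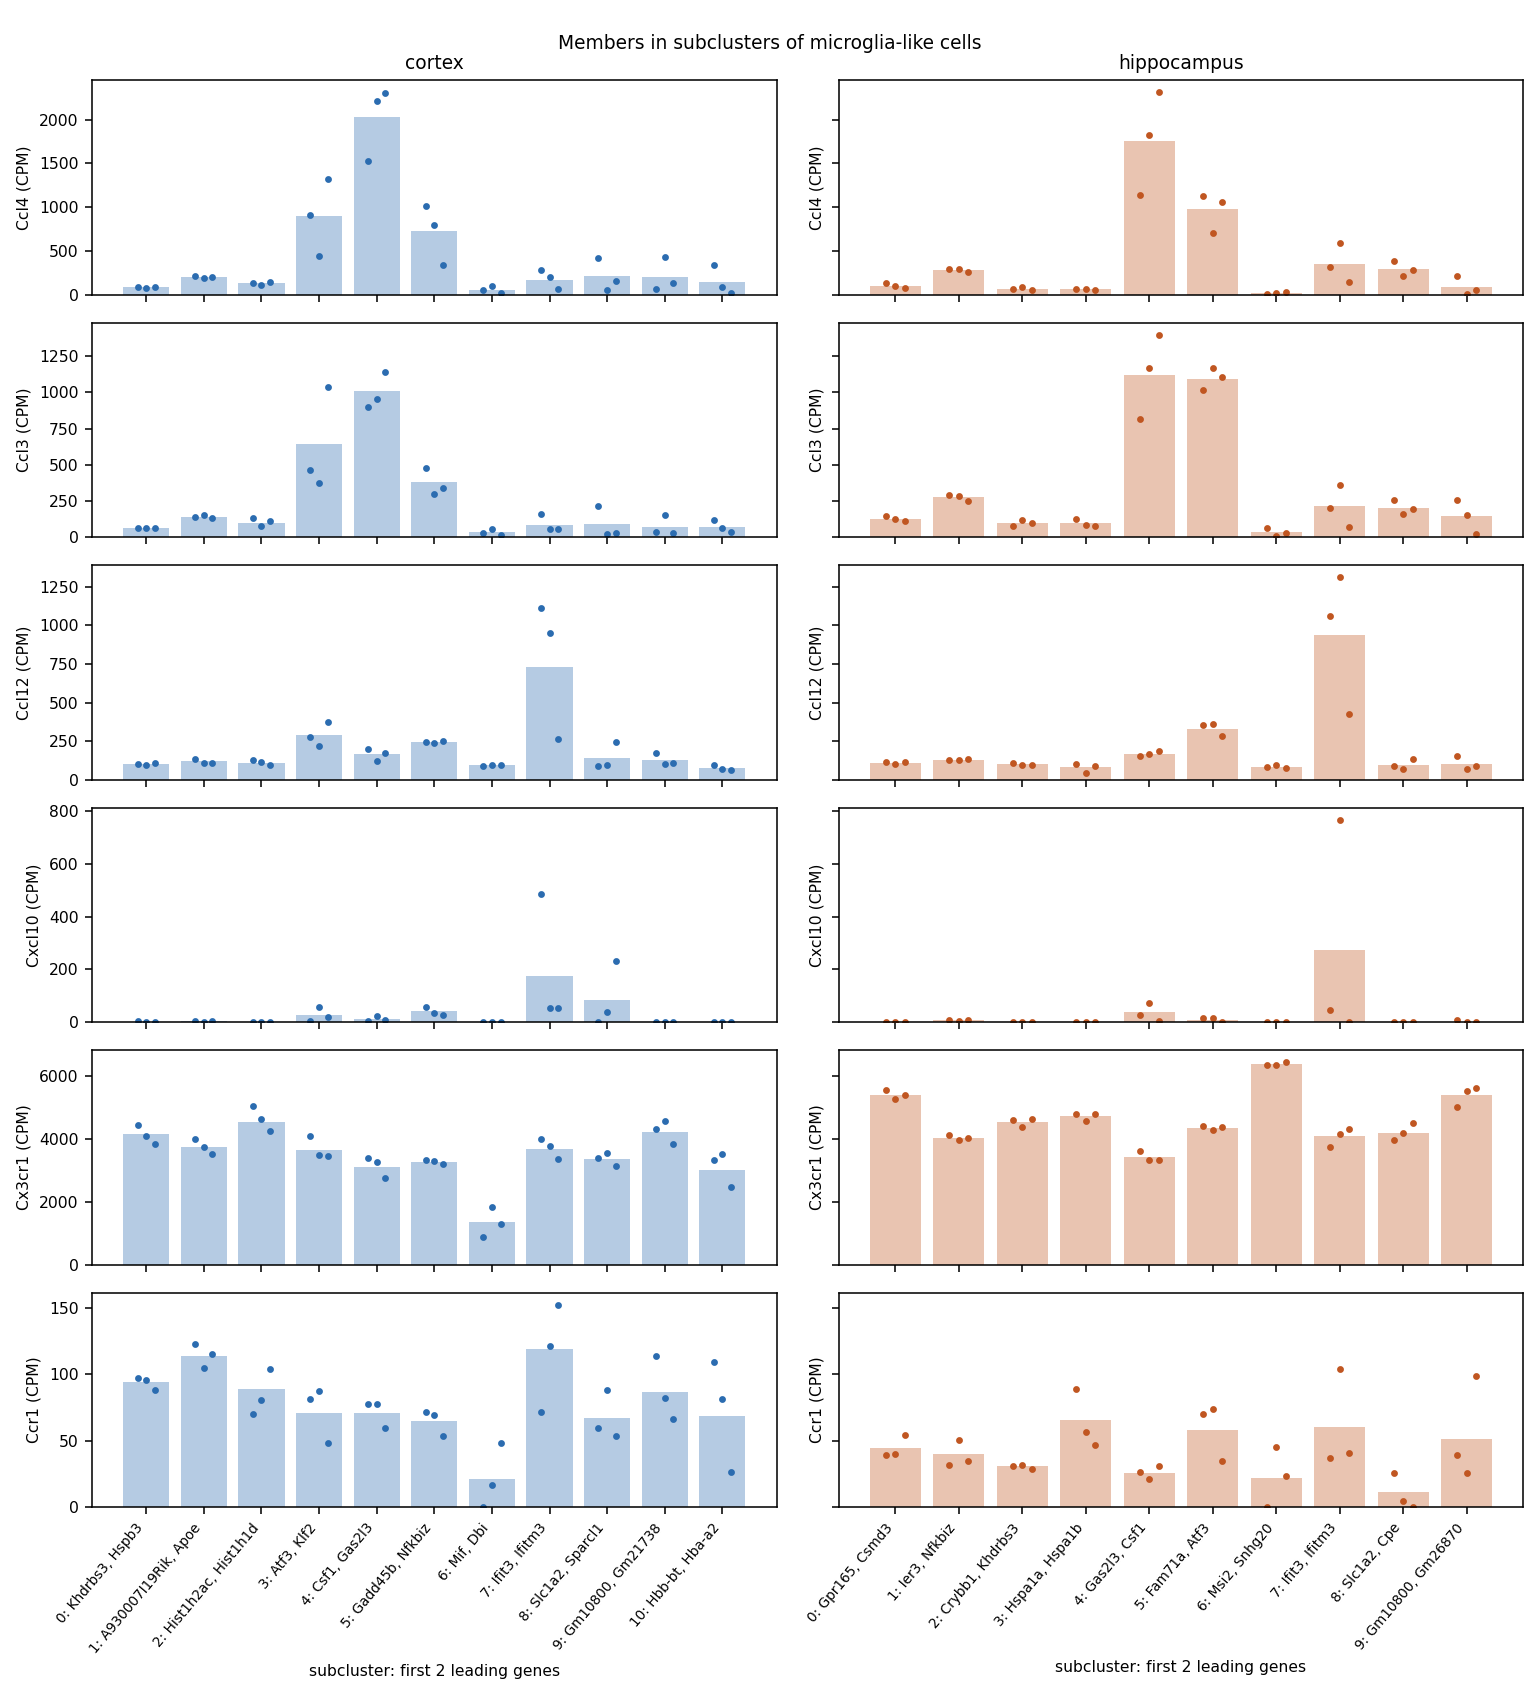
Levels of 6 genes (rows, CPM) in subclusters of microglia-like cells (columns, numbered, with their first leading genes) for cortex and hippocampus; bars give the CPM of summed UMIs and dots the 3 libraries. Ccl4 peaks in the Csf1 and Gas2l3 subclusters, Ccl12 and Cxcl10 in the Ifit3 subclusters, and Cx3cr1 and Ccr1 are spread over nearly all. Ccl3 is high in the Csf1 and Gas2l3 subclusters and, in the hippocampus, in the Atf3 subcluster as well.

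Over whole classes, Ccl9 was 347, 379 and 377 CPM in cortical microglia-like cells and 495, 345 and 288 CPM in cortical macrophage-like cells, which overlapped. In the hippocampus it was highest in microglia-like cells, at 289, 299 and 294 CPM. Ccl6 was highest in cortical monocyte-like cells (665, 874 and 634 CPM, in 50 of 58 cells) and in hippocampal microglia-like cells (216, 223 and 219 CPM).

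The balance of Ccl4 and Ccl3 also differed. Over all microglia-like cells there were 1.70, 1.76 and 1.55 Ccl4 UMIs per Ccl3 UMI in the cortical libraries and 1.10, 1.10 and 1.18 in the hippocampal ones. The libraries did not overlap between regions. The ratio was 2.02 (interval 1.91 to 2.13) in the cortical Csf1 subcluster and 1.41 (1.30 to 1.52) in the Atf3 subcluster. Their libraries overlapped, at 1.69, 2.31 and 2.02 against 1.97, 1.17 and 1.28. The matching hippocampal subclusters gave 1.56 (1.49 to 1.63) and 0.894 (0.839 to 0.952). Their libraries did not overlap, at 1.40, 1.56 and 1.65 against 1.11, 0.606 and 0.958. The intervals cover counting error only, while few cells held most of the UMIs.

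The 3 largest cortical subclusters had 0 of 26 chemokine genes 2-fold up, against 0%, 0% and 0.0647% of all genes, and the 4 largest hippocampal ones had 0 of 29, against 0.0238%, 0.0238%, 0% and 0.0477%. Among the small ones, the cortical subclusters led by Mif, Slc1a2, Gm10800 and Hbb-bt had 3, 2, 1 and 1 genes up (2.94%, 3.12%, 0.275% and 3.4% of all genes), and the hippocampal ones led by Msi2, Slc1a2 and Gm10800 had 0, 1 and 1 (3.27%, 2.53% and 0.516%). Some of these carried markers of other cells. A cortical subcluster of 178 cells led by Mif and Dbi had a median of 1461 UMIs, and Ccl5 was 0, 2085 and 0 CPM in it, all from replicate 2. Its summed level of T and NK cell markers was 30.8 CPM, and that of all cortical microglia-like cells was 26.3 CPM. A sum over 178 cells cannot show a few cells, and the source of this Ccl5 was not tested. A cortical subcluster of 140 cells carried 8 of 11 astrocyte markers, 42.9% called doublets and 159 CPM of Cxcl14, and it held 64.9% of the Cxcl14 UMIs of the class.

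Macrophage-like cells, 108 in the cortex and 223 in the hippocampus, were led by antigen presentation genes, Pf4 and Mrc1, which mark macrophages at brain borders. Ccl24, a ligand of Ccr3, was 242, 342 and 329 CPM in the cortex and 137, 151 and 229 CPM in the hippocampus. Ccl7, a ligand of Ccr2, was 94.8, 177 and 182 CPM and 181, 318 and 217 CPM. Both were at least 5-fold above the next class in both preparations. Ccl8 was low, at 5.27, 15.8 and 55.6 CPM in the cortex (17 UMIs in 10 cells). In the hippocampus it was 18.1, 42.6 and 13.7 CPM.

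Ccl2 and Ccl12 peaked in the same class and were less even. Ccl2 was 158, 250 and 486 CPM in the cortex and 285, 267 and 396 CPM in the hippocampus. Ccl12 was 421, 791 and 197 CPM and 689, 286 and 437 CPM. The regions overlapped for both genes.

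The macrophage-like class was not pure. Monocyte markers summed to 8052 and 8427 CPM in it and T and NK cell markers to 88.1 and 1345 CPM. With every cell assigned by the markers it carried itself, 84 cortical and 133 hippocampal macrophages gave higher levels of Ccl12 (935 and 893 CPM), Ccl2 (483 and 633 CPM), Ccl7 (276 and 524 CPM) and Ccl24 (552 and 363 CPM). Ccr2 went the other way. It was 917, 772 and 511 CPM in the cortical and 237, 93.3 and 240 CPM in the hippocampal macrophage-like cluster, and 12.3 and 1.44 CPM in macrophages classed by their own markers. By own markers, Ccr2 stood at 1352, 1758 and 1644 CPM in 14 cortical dendritic cells and at 410 and 454 CPM in 54 and 38 monocytes.

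Lymphocytes formed no cluster at the main resolution. They fell in the cortical neuron-like cluster (T and NK markers 1287 CPM, B cell markers 839 CPM, neutrophil markers 2.09 to 13798 CPM by library) and in the hippocampal macrophage-like cluster. The cortical neuron-like class was the highest class for Ccl5, Xcl1, Cxcr6, Ccr7, Cxcl9 and Xcr1. Classing by own markers gave 23 and 29 T and NK cells and 29 and 22 B cells.

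By cluster, Ccl5 was 0, 2401 and 414 CPM in the cortical neuron-like class and 852, 3058 and 670 CPM in hippocampal macrophage-like cells. Xcl1 was 184, 24.4 and 29.1 CPM and 48.2, 126 and 190 CPM in those same classes, and Cxcr6 was 58.6, 67.0 and 15.4 CPM and 66.3, 65.5 and 91.5 CPM. The libraries of 1 class differed up to several-fold for each of these genes. Cxcl9, a Cxcr3 ligand, was 0, 0 and 509 CPM in the cortical class, and by own markers 298 of its 302 cortical UMIs lay in 1 monocyte. Ccl17, a Ccr4 ligand, was 0, 180 and 0 CPM in cortical macrophage-like cells. Each of these came from 1 library.

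Those few T and NK cells held most of the UMIs of Ccl5, Xcl1 and Cxcr6. For Ccl5, a T cell and monocyte attractant, they held 1027 of 1358 cortical and 2390 of 2817 hippocampal UMIs, at 5668 and 10440 CPM. The cortical UMIs lay in 6 cells and were absent from replicate 1. For Xcl1, the lymphotactin that acts on Xcr1 of dendritic cells, they held 113 of 113 and 183 of 187 UMIs. For Cxcr6 they held 59 of 69 and 105 of 119 UMIs, at 408, 339 and 189 CPM in the cortex and 446, 332 and 927 CPM in the hippocampus. Cxcr3, the receptor for Cxcl9 and Cxcl10, was 66.2 and 227 CPM in T and NK cells, which held 12 of its 91 cortical and 52 of its 182 hippocampal UMIs, and microglia held 67 and 81. By cluster it was highest in hippocampal macrophage-like cells (52.2, 80.2 and 50.3 CPM) and at 17.0 CPM in cortical ones. Ccr7, the receptor that leads lymphocytes to lymph nodes, was 116 and 263 CPM in B cells and 155 and 65.5 CPM in T and NK cells, which held 28 of 81 and 15 of 42 UMIs.

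Neutrophil and dendritic genes rested on fewer cells still. Cxcr2, the main neutrophil chemokine receptor, was 1524, 257 and 1713 CPM in 6 cortical neutrophils and 646, 0 and 579 CPM in 28 hippocampal ones, from 21 and 13 UMIs. Cxcl2, a ligand of Cxcr2, was 2951 and 2090 CPM in the same cells, from 77 and 50 UMIs, with replicate 3 highest in both preparations. Cxcr2 had 83 and 151 UMIs over all kept cells, so most lay outside neutrophils. Microglia by own markers held 23 of the cortical ones, and hippocampal microglia-like cells held 69, at 1.68 CPM. By cluster, Cxcr2 was 207, 101 and 102 CPM and Cxcl2 was 135, 168 and 716 CPM in cortical monocyte-like cells, a class with 30475 CPM of neutrophil markers. Hippocampal macrophage-like cells held Cxcl2 at 167, 47.5 and 249 CPM. Cortical Xcr1 lay mainly in 2 cells, 1 of 54 monocytes with 32 UMIs and 1 of 14 dendritic cells with 12 UMIs.

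Cxcl12, which acts on Cxcr4, was highest in endothelial-like cells. Endothelial-like cells gave 2486, 2250 and 2002 CPM in the cortex and 2252, 2245 and 2346 CPM in the hippocampus. The regions overlapped and the log2 ratio was 0.02 (interval -0.001 to 0.037). A UMI was present in 82.6% of endothelial-like cells of both preparations (63.6% and 65.4% after thinning) and in 1.36% and 2.39% of microglia-like cells (0.21% and 0.44% after thinning). Fibroblast-like cells gave 679, 989 and 1390 CPM in the cortex and 963, 1366 and 948 CPM in the hippocampus.

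Pericyte-like cells gave 1457, 1103 and 1432 CPM of Cxcl12 in the cortex and 322 CPM in the hippocampus. Endothelial markers differed too. They summed to 14319 CPM in cortical pericyte-like cells (26378 CPM in endothelial-like cells), with all 11 seen, and to 862 CPM in hippocampal ones. By own markers the pericytes of the regions were at 392 and 390 CPM. That classing leaves out cells with as large a share of endothelial markers detected. A hippocampal cluster of 176 cells that carried 11 endothelial and 8 pericyte markers was left unnamed, so its cells are in no class. The named hippocampal classes held 39588 of the 43777 Cxcl12 UMIs of all kept cells. The part of endothelial RNA, or of that unnamed cluster, in the Cxcl12 difference was not tested.

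Ackr3, which scavenges Cxcl12, was highest in mural classes. In vascular smooth muscle-like cells it was 402, 416 and 441 CPM in the cortex and 292, 336 and 325 CPM in the hippocampus, without overlap. Pericyte-like cells gave 328, 312 and 338 CPM and 356, 266 and 344 CPM, with overlap. The named hippocampal classes held 3111 of the 3859 Ackr3 UMIs of all kept cells. Endothelial-like cells held 137 and 103 CPM, and by own markers endothelial cells held 3695 of the 6211 cortical UMIs. A UMI was seen in 83.3% and 80.9% of smooth muscle-like cells (31.0% and 28.1% after thinning) and in 2.80% and 2.12% of microglia-like cells (0.49% and 0.44%), at median depths of 10234.5 and 13147 UMIs against 5474 and 6647 UMIs.

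Cxcr4, the signalling receptor, had its highest levels outside the vessel wall. In the cortex it was highest in monocyte-like cells, at 539, 504 and 440 CPM, with UMIs in 52 of 58 cells. In the hippocampus it was highest in ependymal-like cells (126, 108 and 102 CPM) and in neuron-like cells (81.4, 85.9 and 92.0 CPM), and those values did not overlap. Of the ependymal-like cells, 21.3% shared a barcode with another library. No monocyte-like cluster was named in the hippocampus, and 38 monocytes classed by own markers gave 124 CPM. Microglia-like cells held 0.426 and 0.487 CPM. By own markers, endothelial cells held 254 of the 642 cortical Cxcr4 UMIs and monocytes held 150.

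The hippocampal neuron-like class split into 3 clusters. A cluster of 80 cells led by Reln, Lhx1 and Ndnf, genes known from Cajal-Retzius cells, had Cxcl12 at 839, 807 and 675 CPM and Cxcr4 at 91.5, 153 and 125 CPM. A cluster of 377 cells led by Igfbpl1, Neurod1 and Eomes, genes known from young neurons, had Cxcr4 at 84.3, 81.0 and 93.7 CPM and Cxcl12 at 12.7 CPM. The third (49 cells, led by Dlx genes) had 10.3 CPM of each. Cxcr4 was present in the first and second clusters, and Cxcl12 was far lower in the second than in the first. Whether single cells held both genes was not tested.

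**Figure D3:**
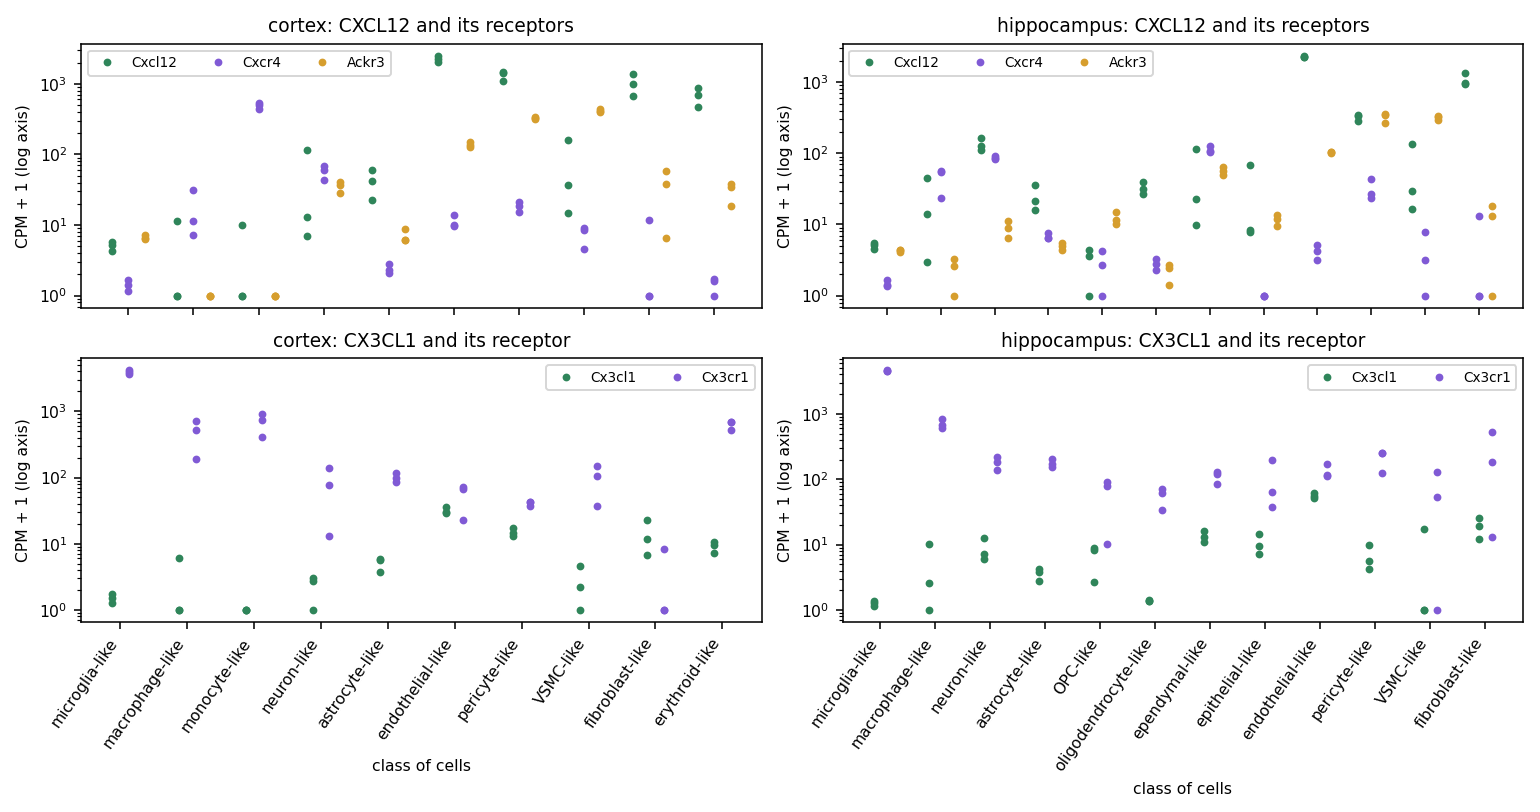
Levels of Cxcl12, Cxcr4 and Ackr3 and of Cx3cl1 and Cx3cr1 in each class, 1 point per library, on a log axis of CPM plus 1, for cortex and hippocampus. Cxcl12 is highest in endothelial-like cells, at 2002 to 2486 CPM in the cortex, Ackr3 in mural classes and Cx3cr1 in microglia-like cells.

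Endothelial-like cells were clustered again, and segments were named where at least 3 fixed markers agreed. Cxcl12 differed between these subclusters. In the cortex the venous subcluster (627 cells, led by Adgrg6) had 731, 620 and 493 CPM and the arterial subcluster (299 cells, led by Mgp and Eln) had 3590, 2776 and 2423 CPM. In the hippocampus the venous subcluster led by Wnt5a (327 cells) had 245, 343 and 342 CPM and the arterial subcluster led by Gkn3 and Vegfc (258 cells) had 2660, 3001 and 3259 CPM. Of these 2 subclusters of each preparation, the arterial one lay above the venous one in every library, but a smaller hippocampal arterial subcluster (28 cells, led by Fbln5 and Mgp) had 106, 163 and 47.7 CPM, below that venous one.

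The largest subclusters, which no segment list named, were also high: 5017, 4472 and 3697 CPM in 1041 cortical cells led by Ivns1abp and 3190, 3110 and 2942 CPM in 826 hippocampal cells led by Htra3 and Meox1. One arterial subcluster was low. It held 28 hippocampal cells led by Fbln5, Mgp and Cytl1 and had Cxcl12 at 106, 163 and 47.7 CPM, with 9 of 10 arterial markers.

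Ackr1 and Ackr2 were highest in particular subclusters of the endothelial-like cells, of which the cortical venous one was large (627 of 2696 cells). Ackr1, a chemokine-binding protein of venules, was 2.06, 49.3 and 43.6 CPM in the cortical venous subcluster, and replicate 1 was low. In the hippocampus it was 48.0, 133 and 55.8 CPM in 34 venous cells led by Plvap and Esm1, and 0 in the larger venous subcluster. Ackr2, a scavenger of inflammatory CC ligands, was 68.9, 121 and 85.7 CPM in the cortical angiogenic subcluster (121 cells, led by Apln) and 31.0, 24.7 and 25.02 CPM in the subcluster led by Htra3 and Nid1. That angiogenic subcluster also had the highest endothelial Cxcr4 (25.9, 70.2 and 35.1 CPM) and Cxcl16 (48.4 CPM), and low Cxcl12 (253 CPM).

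**Figure D4:**
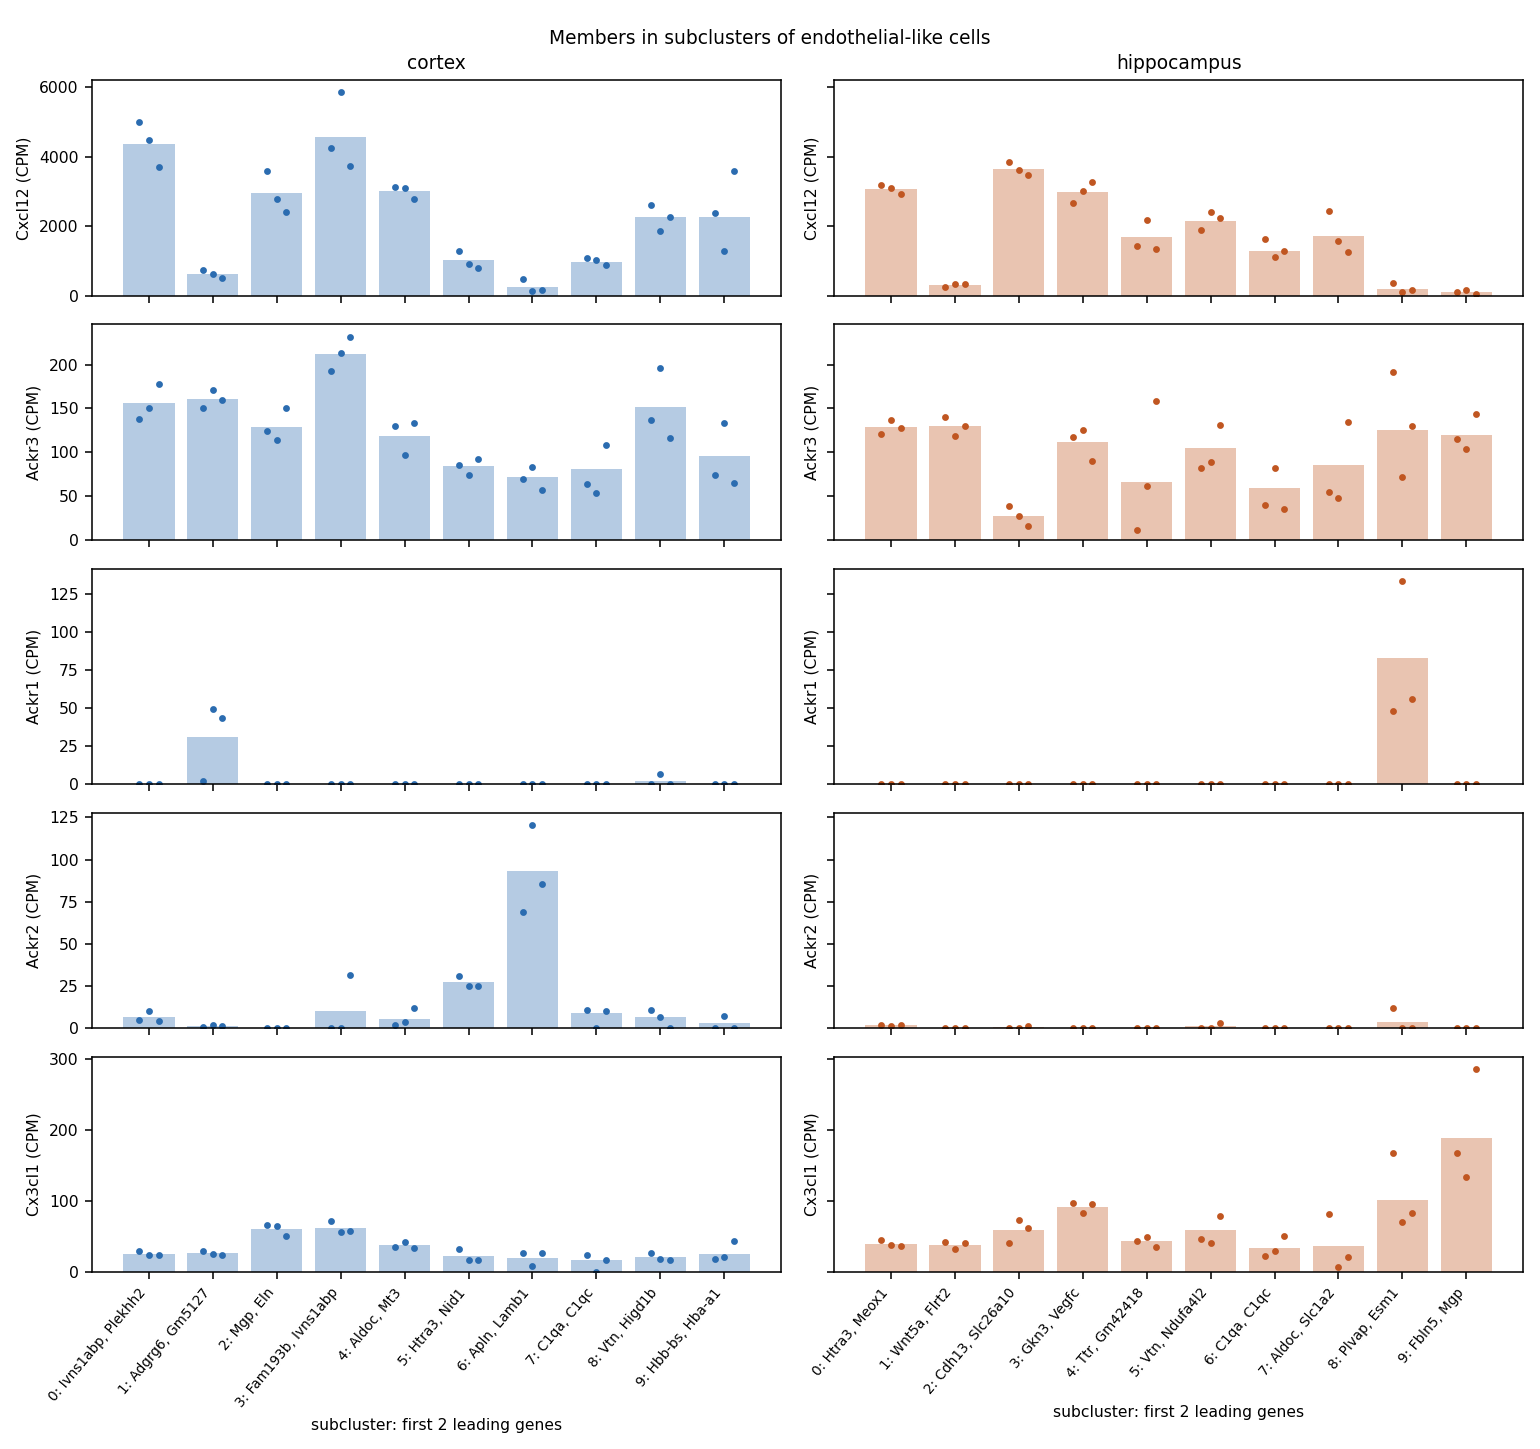
Levels of 5 genes (rows, CPM) in subclusters of endothelial-like cells (columns, numbered, with their first leading genes) for cortex and hippocampus; bars give the CPM of summed UMIs and dots the 3 libraries. Cxcl12 is low in venous subclusters (617 and 308 CPM), Ackr1 appears in 1 venous subcluster of each preparation, and Ackr2 in the cortical Apln subcluster.

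Across all endothelial-like cells Ackr2 was 10.9, 17.0 and 10.9 CPM in the cortex and 1.88, 0.365 and 1.57 CPM in the hippocampus, without overlap. It was at least 2-fold lower in the hippocampus on the scale of CPM plus 5 (log2 ratio -1.52), as did Ackr1 (-1.08, libraries overlapping), against 0.783% of all genes. The Apln subcluster held 121 of 2696 cortical and 18 of 2135 hippocampal endothelial-like cells, and in those 18 cells Ackr2 was 49.0 CPM. The part of this cell makeup in the difference was not tested.

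Cx3cl1, the tethered ligand of Cx3cr1, was highest in endothelial-like cells in both preparations, at 34.8, 29.2 and 28.1 CPM in the cortex and 55.4, 51.3 and 60.3 CPM in the hippocampus. The groups did not overlap and the log2 ratio was 0.85 (interval 0.71 to 1.00), below 2-fold. Arterial subclusters were higher, at 61.1 CPM in the cortex and 91.6 and 189 CPM in the hippocampus. Neurons, a known source of this ligand, gave 2 UMIs in the cortical neuron-like class and 7.29 CPM in the hippocampal one, classes led by Igfbpl1, Sox11, Reln or Dlx genes.

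The endothelial-like class also passed 2-fold upward in the hippocampus for Cx3cr1 (53.1 against 133 CPM) and Ccl3 (3.51 against 12.9 CPM), against 0.877% of all genes. The class included subclusters that carried all 10 microglial markers. They were 46 cortical cells, 78.3% of them called doublets, with Cx3cr1 at 1663 CPM, and 57 hippocampal cells, 80.7% called doublets, at 2710 CPM. Without called doublets the log2 ratios were 0.97 for Cx3cr1 and 0.25 for Ccl3. Without replicate 2 both were 0.68. The part of these subclusters in either difference was not tested.

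Cxcl14, a ligand long without an agreed receptor, marked astrocyte-like cells. The cortex gave 862, 927 and 983 CPM and the hippocampus 869, 878 and 893 CPM, with overlap. A UMI was seen in 93.0% and 86.1% of these cells (59.2% and 55.5% after thinning) and in 2.15% and 1.32% of microglia-like cells (0.54% and 0.20%), at median depths of 6452 and 6708 against 5474 and 6647 UMIs. Cxcl5 was near absent from cortical astrocyte-like cells (2 UMIs) and reached 3.51, 2.21 and 1.34 CPM in hippocampal ones.

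Fibroblast-like cells, 57 and 47 in number, were highest for Ccl19, the Ccr7 ligand of lymphoid stroma, in both preparations. It was 34.5, 43.7 and 29.4 CPM in the cortex and 0, 90.7 and 36.2 CPM in the hippocampus, from 22 UMIs in 10 cells. Cxcl16 was 57.5, 71.1 and 125 CPM in cortical fibroblast-like cells, and in the hippocampus it was highest in macrophage-like cells (173, 93.3 and 126 CPM). Ccrl2 was highest in cortical monocyte-like cells (62.9, 50.4 and 184 CPM, overlapping the next class) and was high in pericyte-like cells, at 65.3, 67.0 and 85.1 CPM in the cortex and 103, 85.3 and 87.6 CPM in the hippocampus.

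Ccl25 and Ccl27a, known from thymus and skin, were low and broad. Ccl25 was 20.8 CPM in neuron-like and 20.7 CPM in astrocyte-like cells of the cortex, and 35.4 CPM in fibroblast-like and 33.9 CPM in ependymal-like cells of the hippocampus. Ccl27a was 18.8, 45.7 and 23.9 CPM in cortical and 82.0, 77.2 and 69.1 CPM in hippocampal neuron-like cells. For both genes, in both preparations, the next class stood within the spread of the libraries. Most remaining genes stayed under 10 CPM in their highest classes. Ccl11, an eosinophil attractant, was 4.86 and 5.59 CPM in pericyte-like cells. Cxcl1 was 4.61 CPM in cortical smooth muscle-like and 7.12 CPM in hippocampal macrophage-like cells, from 11 UMIs each. Endothelial-like cells were next, with 4.26 and 4.78 CPM from 102 and 76 UMIs, and by their own markers endothelial cells held 107 of 131 cortical UMIs. Ackr4, a scavenger of Ccl19, Ccl21 and Ccl25, was 0.632 CPM in cortical astrocyte-like cells and 8.54 CPM in hippocampal epithelial-like cells, a class with a median of 875 UMIs in which 67.6% of barcodes were shared between libraries. Ccl28 and its receptor Ccr10 reached 1.02 and 2.36 CPM at most.

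Exons of 10 genes overlap those of another gene, and since it is not given whether counting used strand, some values are uncertain. Ackr1 shares 361 bases with Cadm3 on the same strand, and its hippocampal levels in neuron-like (16.9 CPM) and OPC-like cells (11.9 CPM) stood in the classes where Cadm3 was 78.8 and 51.1 CPM. Ccr9 shares 22 bases with Slc6a20a on the opposite strand, and both were highest in fibroblast-like cells, with Ccr9 at 17.5 and 25.9 CPM and Slc6a20a at 870 and 1219 CPM. Its larger overlaps are 1932 bases with AC165425.1 on the opposite strand and 269 bases with Gm17200 on the same strand. Levels of AC165425.1 and Gm17200 are not given here. Cxcl10 shares 133 bases with Art3, which was at 491 and 659 CPM in pericyte-like cells, while Cxcl10 was highest in other classes: in 4 cortical macrophage-like cells (94.8, 47.4 and 15.2 CPM) and in hippocampal neuron-like cells (2.26, 0.914 and 60.7 CPM), where replicate 3 carried it. Cx3cr1 shares 78 bases with Gm33858, and Cxcl16, Ccl25, Ackr4 and Ccl27a overlap a gene on the opposite strand as well.

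On the scale of CPM plus 5, few chemokine genes of microglia-like cells were 2-fold apart between the regions. A gene under 5 CPM in both regions cannot pass 2-fold on that scale, and the constant also shrinks its ratio. Of 33 genes with enough UMIs, 0 passed 2-fold up and 1, Ccr1, passed 2-fold down, against 0.425% and 0.814% of all genes. The median log2 ratio of the 33 genes was 0.02, and that of all genes 0.05. With 1 CPM added in place of 5 the count of genes down was 3, with Ccl7 and Cxcl14 joining. Without overlap of libraries, Ccl6 (raw log2 0.50), Ccl25 (0.57), Ccrl2 (0.44), Cxcl16 (0.33) and Ccr3 (0.49) were higher in the hippocampus, as were Ccl3 and Cx3cr1. Ccl2 (-0.70), Ccl9 (-0.32), Ccl24 (-0.51) and Ackr3 (-0.79) were lower, and all of these were below 2-fold. Raw ratios passed 2-fold without overlap for Ccl7 (-1.61), Cxcl14 (-1.60), Ccr9 (-1.62) and Cxcr2 (1.72). These genes stood at 6.00 CPM or less in both regions. Ccl12 (0.03), Ccl4 (0.09) and Cxcl10 (-0.03) overlapped. The share of all genes without overlap is not given here, so lack of overlap is not shown to be particular to chemokine genes.

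**Figure D5:**
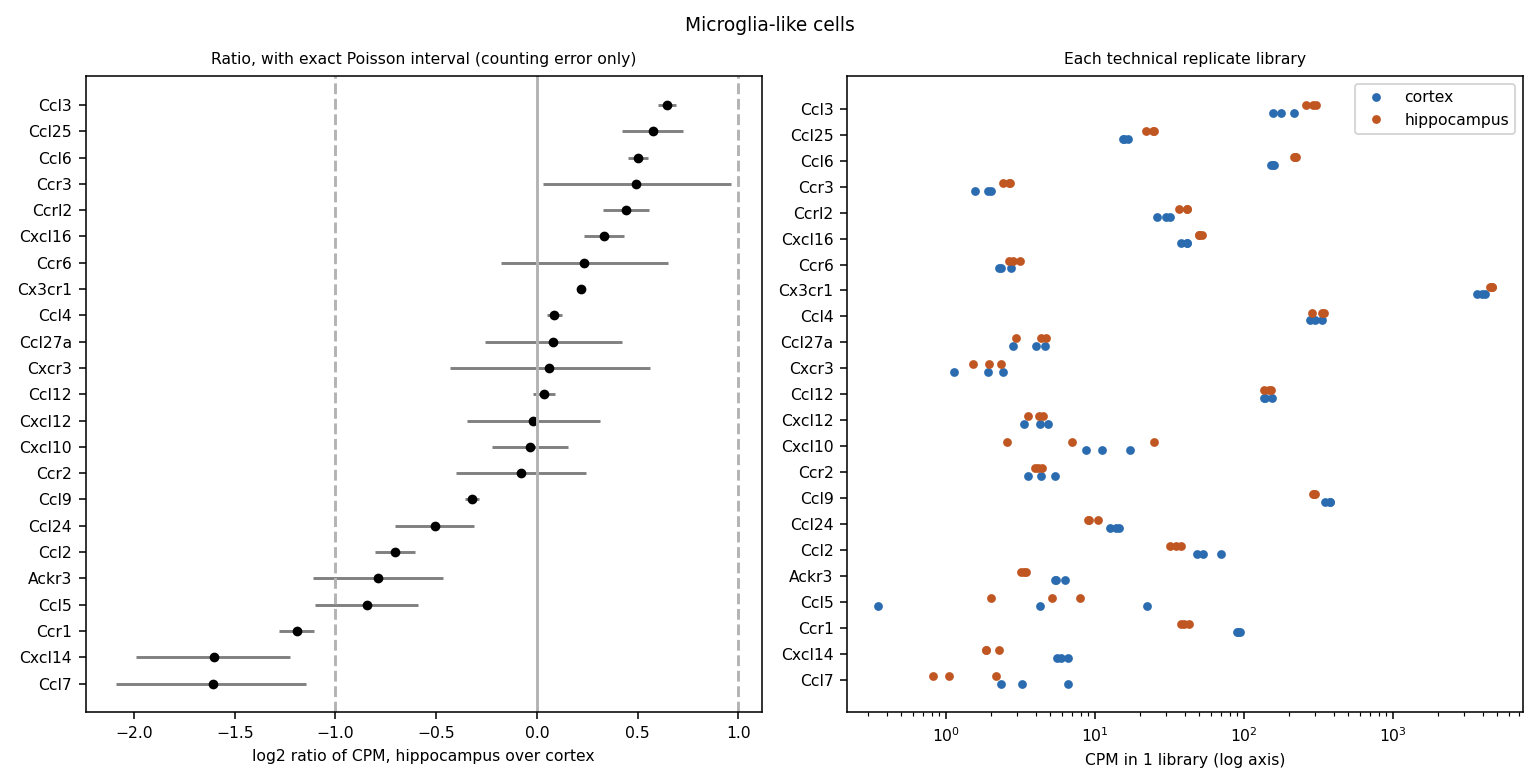
Log2 ratio of hippocampal over cortical CPM in microglia-like cells for genes with at least 100 UMIs in both regions together; points give the ratio of summed UMIs and bars its 95% counting interval, with each library's CPM on a log axis at right. Ccr1 sits at -1.19, Cx3cr1 at 0.22 and Ccl3 at 0.65.

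Of 34 genes for signalling below chemokine receptors, 34 were tested in microglia-like cells and 0 passed 2-fold in either direction (median log2 0.16). Of 10 genes that process or bind ligands, 9 were tested in microglia-like cells and 0 passed (median 0.18), and in astrocyte-like cells 1 of 9 was up (11.1%). In the interferon list 0 of 17 passed in microglia-like cells (median -0.01), and 5 of 16 tested were up in hippocampal endothelial-like cells (median 0.79, all genes 0.10). In astrocyte-like cells 0 of 22 tested chemokine genes passed 2-fold on the scale of CPM plus 5, against 1.15% of all genes up and 1.2% down. Raw log2 ratios there passed 2-fold without overlap for Cxcr4 (2.02), Cxcl16 (1.20), Cxcl5 (4.36) and Cxcr2 (1.10). These genes stood at 5.82 CPM or less in both regions. In endothelial-like cells raw ratios also passed 2-fold without overlap for Cxcr4 (-1.67) and Cxcl14 (-1.04).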

How the data were processed

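The authors deposited raw UMI counts per gene and barcode for each of the 6 libraries (3 cortical, 3 hippocampal). The submitters' processing notes name Cell Ranger 5.0.1 and mm10, and the matrix headers name software versions 3.0.1 (cortex) and 3.1.0 (hippocampus). The gene lists held 31053 and 27998 genes, and 27514 identifiers were shared. Whether counting used strand is not given in the sources used here.

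Cells with 250 to 6000 genes and under 25% mitochondrial UMIs were kept. Libraries of 1 preparation were normalised to 10000 UMIs per cell, integrated by canonical correlation and clustered in Seurat 5.3.0 (R 4.3.3) on 2000 variable genes and 30 components at a resolution of 0.5, without the 67 genes. A cluster was named "X-like" when it carried at least 3 markers of 1 type, each in at least 20% of its cells and at least 2-fold above the rest, and its leading genes and other markers did not point to another type. Endothelial segment markers were counted as endothelial, a choice made after the first names were seen. Doublets were the highest Scrublet scores (scanpy 1.11.5), taken up to 0.8% per 1000 barcodes, and were kept, with their removal as an alternative. UMIs were summed per library and class and divided by the total over the shared identifiers. Intervals are exact Poisson or Clopper-Pearson at 95%, and ratios of 2 sums use the conditional binomial interval. Folds use CPM plus 5 unless a raw ratio is given, and need 20 UMIs over both preparations and a fold of 2. Shares of cells were also computed after thinning to 1000 UMIs. A second classing gave each cell the type with the largest share of its listed markers detected, with at least 2 detected and no tie. The naming, level and interval steps were tested on simulated data. Python 3.11.15, numpy 2.4.6, scipy 1.17.1, pandas 2.3.3, Matrix 1.6.5 and matplotlib 3.10.9 were used.

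With 1 pool of mice per condition no test was run. Values in every library were given for genes of at least 50 CPM in a class of at least 20 cells, others by class or count. The genes, gene lists and markers were chosen with earlier results of these data known. The alternatives tried are listed with their effect in the closing section. The values of 1 gene of the set are not reported here, though it stays in the counts.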

Additional observations from a re-analysis of the deposited data

Results flagged for a closer look

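Signals were also present in cells that the comparisons left out. In 200 cortical barcodes with more than 6000 genes, Ackr1 was 25.21 CPM (225 UMIs) against 9.019 CPM in its highest class. In the same barcodes Cx3cl1 was 33.73 CPM (301 UMIs) against 30.77, and Cxcl1, a neutrophil attractant, was 5.827 CPM (52 UMIs) against 4.613. One Ccl21a identifier was 2.241 CPM (20 UMIs) there and at 0 in every class, and its near-identical copies make the count uncertain.

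In the hippocampus an unnamed cluster of 337 cells, with a median of 951 UMIs and led by Gm8730, Cd52 and Lyz2, held Ccl6 at 328.4 CPM (221 UMIs) against 219.4 in its highest class, microglia-like cells. Ccl9 was 401.2 CPM (270 UMIs) there against 294.3.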

How the results depend on the processing

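No paired analysis was possible because no test was run, and replicate numbers mark technical libraries of separate pools. Genes highest in hippocampal microglia-like cells numbered 8, and 5 when cells were classed by their own marker UMIs or clustered at a resolution of 1.0. The cause was not tested. Genes at least 2-fold lower in hippocampal microglia-like cells numbered 1, and 3 with 1 CPM added, by construction of the smaller constant: Ccr1, Ccl7 (log2 -1.11) and Cxcl14 (-1.24). Genes at least 2-fold higher numbered 0 under every alternative run. Leaving out 1 replicate at a time gave 0 to 0 genes higher and 1 to 1 lower, 13 to 17 class-restricted genes in the cortex and 12 to 14 in the hippocampus, 40 to 43 and 44 to 45 genes found, and 4 to 5 and 7 to 9 genes highest in microglia-like cells. Over all alternatives class-restricted genes ran from 11 to 17 and 12 to 18, genes found from 40 to 51 and 42 to 53, and genes highest in microglia-like cells from 4 to 7 and 5 to 10. Counting segment markers apart from endothelial markers was an alternative chosen after seeing the data. Of 611 recomputed levels 67 moved by more than 1 SD over libraries, as did 67 of 832 recomputed log2 ratios, and none of those called changed sign. Genes near the floor of 3 UMIs, and classes under 60 cells such as monocyte-like and fibroblast-like cells, are limited by depth.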
